A study of Mus musculus with 9 samples.

Results

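The comparison described here sets 3 libraries of ventricular heart cells given siRNA against Dnmt3a beside 3 given a negative control siRNA, chosen by their titles as 6 of the 9 libraries of the series. The cells came from CD-1 mouse embryos at embryonic day 13.5, and nothing in the labels points to a genetic change in them. Ventricles were pooled within a litter and dissociated, and cells slow to attach were cultured for 48 h. They then received 0.012 pmol of a pool of 4 siRNAs to Dnmt3a (group DNMT3a), a pool of 4 to Dnmt3b (group DNMT3b) or the AllStars negative control (group control), and were harvested after a further 72 h, when VCAM1-bearing cells were pulled out with magnetic beads. A library is named by its group and its labelled number, 1 to 3. Whether libraries of a group stem from separate litters or cultures is not stated, so each p-value measures the spread between these libraries only, which may be technical. All groups passed through culture, lipofection and the VCAM1 selection, and untransfected cells were not analysed here.

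Dnmt3a encodes a de novo DNA methyltransferase, an enzyme that adds methyl groups to cytosines of previously unmethylated CpG sites. Methylation of promoters is commonly linked to silencing, and methylation within gene bodies to active transcription. In the mouse heart, cardiomyocytes gain and lose DNA methylation as they mature from the embryo to the adult. An siRNA guides the cleavage of a transcript that it matches along its length, and siRNA guide strands are also known to lower other transcripts whose 3' untranslated region (3' UTR) pairs with a short stretch of the guide called the seed.

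Expression levels are given in CPM, the reads of a gene relative to all reads of its library after TMM scaling. The test was edgeR's quasi-likelihood test over all 9 libraries with Benjamini-Hochberg adjustment over 16561 genes, and a gene is said to have risen or fallen where its adjusted p was under 0.05. A log2 fold change is DNMT3a siRNA over control unless stated otherwise and is followed by its standard error. Dnmt3a itself (ENSMUSG00000020661, chromosome 12, 3806007 to 3914443, plus strand, GRCm38) stood at 232, 269.6 and 275 CPM in the controls. After DNMT3a siRNA it stood at 40.3, 52.9 and 46.3 CPM, and after DNMT3b siRNA at 215, 234 and 235 CPM. The DNMT3a libraries lay far below the other 6, a 5.56-fold drop against control (-2.48 ± 0.11, adjusted p = 3.42e-06). Dnmt3b, the other de novo enzyme, stood at 4.32, 4.26 and 4.33 CPM in control libraries and 4.87, 4.70 and 4.71 CPM in DNMT3a libraries (0.15 ± 0.22, adjusted p = 0.752).

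Each library held between 27852412 and 35896018 reads assigned to genes. The share of alignments that were not unique was 36.6% to 40.1% in the DNMT3a libraries and 41.3% to 42.5% in the controls, and its part in the results was not tested. In a principal component analysis of expression, the leading axis (31.6% of variance) set control 2 and DNMT3a 2 apart from their groups, at 10.7 and 11.6 against -35.3 to -17.5. The DNMT3b libraries lay at 16.4 to 37.6 on this axis. On the second axis (24.1%) the controls stood at 22.4 to 30.8 and the DNMT3a libraries at -37.7 to -23.7, with the DNMT3b libraries between them. All 18 cardiomyocyte markers of the list used here were counted in every library, and so were all 12 fibroblast markers. The summed level of the cardiomyocyte markers was 2678 to 3574 CPM in controls against 6498 to 8314 CPM in the knockdown, and 15 of 18 rose. With DNMT3b siRNA the sums were 8083 to 9680 CPM. The median log2 fold change of these markers was 1.28 with DNMT3a siRNA and 1.79 with DNMT3b siRNA, against the same controls. The summed fibroblast markers ran from 59526 to 77713 CPM in controls and 59011 to 64413 CPM in the knockdown, where 4 of 12 fell. The sums of the 12 epicardial markers did not overlap, at 2284 to 2717 CPM in controls and 1605 to 2120 CPM in the knockdown (4 lower, 2 higher, median -0.37). Their rises numbered 1 without control 2, control 3, DNMT3a 1, DNMT3a 2 or any 1 DNMT3b library. For the 15 macrophage markers tested of 16, the sums were 29.6 to 83.7 CPM in controls and 11.5 to 24.8 CPM in the knockdown, with 4 lower (14 in the fit with the library number as a block). That macrophage count was 8 without control 1, 1 without control 3 and 2 without DNMT3a 1, and the fibroblast count was 2 without DNMT3a 1. In these bulk libraries, fewer cells of a type and less RNA per cell cannot be told apart. Vcam1, whose protein the sort selects, read 276, 281 and 361 CPM without and 217, 212 and 258 CPM with the knockdown (-0.42 ± 0.12, adjusted p = 0.0510). It passed in 9 of 18 alternatives (0.00179 to 0.168 over all of them), the blocked fit among them (adjusted p = 0.0234).

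In all, 1671 of 16561 genes (10.1%) differed, 807 higher (4.87%) and 864 lower (5.22%). The changes were modest in size: the median was 1.67-fold among the risen genes and 1.52-fold among the fallen, and 38.7% and 48.1% of them changed less than 1.5-fold. The 3 DNMT3a libraries lay wholly above the 3 controls for 804 of the 807 risen genes, against 14.1% of all genes tested, and wholly below for 860 of the 864 fallen genes, against 12.6% (26.7% of all genes in either direction). The calls were made on these same libraries, so this parting is largely built in and is a description. With the library number as a block, 1125 genes were higher (6.79%) and 1245 lower (7.52%), and these included 804 of the 807 and 861 of the 864. The total of 1671 became 971 without control 3, 868 without DNMT3a 1 and 1038 without DNMT3a 3. Of the risen genes, the counts without control 1, control 3, DNMT3a 1, DNMT3a 3 and DNMT3b 3 were 499, 444, 416, 464 and 528, and of the fallen genes, those without control 3, DNMT3a 1 and DNMT3a 3 were 527, 452 and 574. Across all 18 alternative fits, 313 genes were called higher each time and 375 lower each time. Genes named below passed in all 18 unless a range of adjusted p or a count of alternatives is given. Counts of called list members, above and below, stand beside 4.87% higher and 5.22% lower over all genes tested. No list was tested as a set.

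Abundant genes were more often lower. When genes were split by control level into 5 classes of equal size, those of the highest class (from 66.8 CPM) fell most: 11.9% fell and 3.17% rose. In the lowest class (up to 1.35 CPM) 0.604% fell and 3.95% rose, and the 3 classes between lay at 2.63%, 3.71% and 7.22% lower. Summed over the 864 fallen genes, the level went from 108660.0 to 72574 CPM, and over the 807 risen genes from 28238 to 45267 CPM. Scaling by library size alone moved the median log2 fold change of all genes from 0.02 to 0.07 and called 1019 genes higher and 649 lower, so that 61.1% of calls were rises in place of 48.3%. Falls and rises also differed in how they stood against the DNMT3b libraries, which shared the handling but not the siRNA. Of the 864 fallen genes, 460 (53.2%) were also lower than in the DNMT3b libraries (5.08% of all genes were), and of the 807 risen genes 202 (25.0%) were also higher (4.47% of all genes were). Both counts use the DNMT3a libraries a second time and are a description. Against the same controls, DNMT3b siRNA gave 583 higher (3.52%) and 351 lower genes (2.12%).

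**Figure D1:**
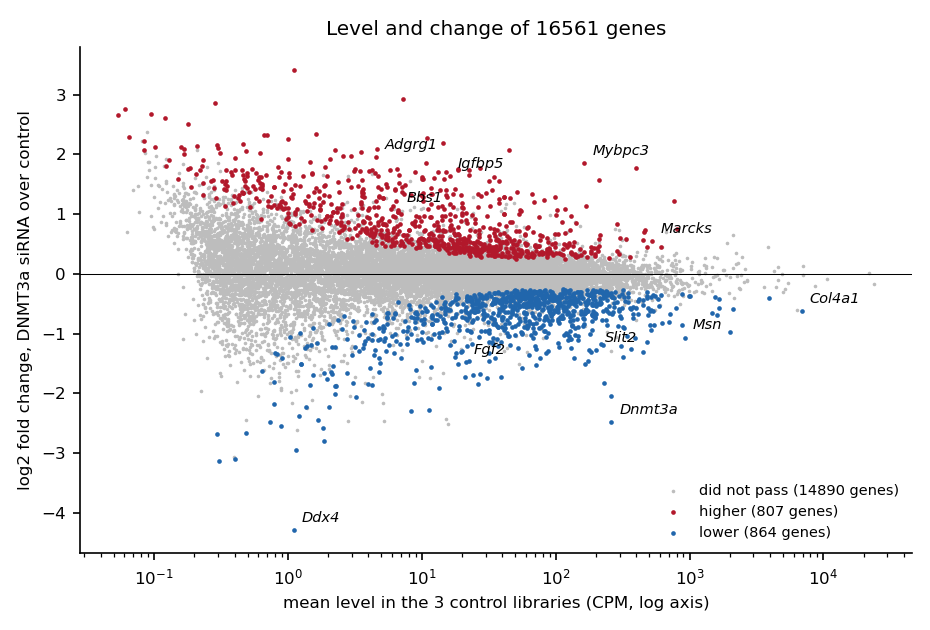
Each point is 1 of 16561 genes, with its mean level in the 3 control libraries (CPM, log axis) across and its log2 fold change with DNMT3a siRNA up. Red points (807) were higher and blue points (864) lower at an adjusted p under 0.05, grey points did not pass, and the blue points gather at higher control levels than the red ones.

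A short sequence was more frequent in the 3' UTRs of the fallen genes than of the others. The 7-base word GCCAATA, known from earlier work on these data, was looked for on the transcript strand of the longest annotated 3' UTR of each gene, where that had at least 50 bases (13619 genes, GENCODE release 21). It stood in 201 of 820 fallen genes, or 24.5% (95% Wilson interval 21.7% to 27.6%, counting error only). It stood in 4.70% of the 12799 genes that did not fall and in 27 of the 770 risen genes (3.51%). Over all 16384 words of 7 bases, no other word had so large a difference in share between fallen and other genes, 19.8 percentage points. The next were CCAATAA (14.0 points) and TGCCAAT (13.6 points), which overlap GCCAATA. As GCCAATA was taken from earlier results of these same data, its place in the ranking is a description and no separate support. Of genes that held CCAATAA without GCCAATA, 8.03% of 934 fell, and of those with TGCCAAT alone, 7.88% of 787, beside 4.83% of the 12817 genes without GCCAATA. Among the risen genes the leading word, CACACAC, differed by 6.88 points.

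Of 18 annotated Dnmt3a transcripts 5 hold the word, against 0 of 12 for Dnmt3b. Over all 13619 genes, 2120 (15.6%) hold it in some annotated transcript. All 5 hold the first site shown, which lies in the coding region of 4 and in the 3' UTR of 1, and 2 of them hold a second site in the 3' UTR. The windows of 30 bases below come from GRCm38 and read 5′ to 3′ on the transcript strand, with the word in capitals. They show the target and only some of the fallen genes described in the text that hold the word. Tgfbr1, Timp2, Lpp, Gas7, Wnt11 and Plau are among those not shown.
Dnmt3a coding region, chr12:3900012-3900041, plus strand: cagatgttctttGCCAATAaccatgaccag
Dnmt3a 3' UTR, chr12:3913939-3913968, plus strand: ctgggatcagtgGCCAATAgggctactgct
Fgf2 3' UTR, first site, chr3:37407167-37407196, plus strand: cggataatgcaaGCCAATAattctgcatct
Fgf2 3' UTR, second site, chr3:37407777-37407806, plus strand: gtctagttaacaGCCAATAaatgttgaact
Tgfbr2 3' UTR, chr9:116090076-116090105, minus strand: atttttacaacaGCCAATAacgtttgcact
Sh3bp5 3' UTR, chr14:31374904-31374933, minus strand: caagaacattgtGCCAATAatcatttaaca
Msn 3' UTR, chrX:96168517-96168546, plus strand: ttctatttcagtGCCAATAaaatttaggaa
Rab7 3' UTR, chr6:87999118-87999147, minus strand: gacgaacgtgatGCCAATAaaatttaacaa
Ctsb 3' UTR, chr14:63143095-63143124, plus strand: aggaatgtctgtGCCAATAaaccaattctc
Slit2 3' UTR, chr5:48304517-48304546, plus strand: tctttggaacacGCCAATActagcagaagc
Cd2ap 3' UTR, chr17:42796156-42796185, minus strand: atattttgttttGCCAATAtgaaaaaaaag
Npc2 3' UTR, chr12:84756490-84756519, minus strand: gttttcattaaaGCCAATActtggttgcag
In the first of these, and in the sites of Fgf2, Tgfbr2, Sh3bp5, Msn, Rab7 and Ctsb, the word is followed by A. Over all 201 fallen genes with the word in the 3' UTR, 103 had a site followed by A. Outside the capitals the windows differ from one another.

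Genes whose word was followed by A were lower more often. Of 318 such genes, 32.4% fell and their median log2 fold change was -0.27. Of 484 genes whose word had another base after it, 20.2% fell and the median was -0.16, and the 12817 genes without the word had a median of 0.02. With DNMT3b siRNA, against the same controls, the medians of these classes were -0.02, -0.06 and -0.01. Followed by 2 further A, the word contains AATAAA, the common polyadenylation signal. Of 160 genes with GCCAATAAA, 33.1% fell, beside 31.6% of 158 genes with a single A after the word, and 4.97% of 10493 genes with AATAAA but not GCCAATA. Of 768 genes with the word only in a coding region 6.38% fell (median -0.01), beside 4.69% of 11994 genes with it in neither region (median 0.03).

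**Figure D2:**
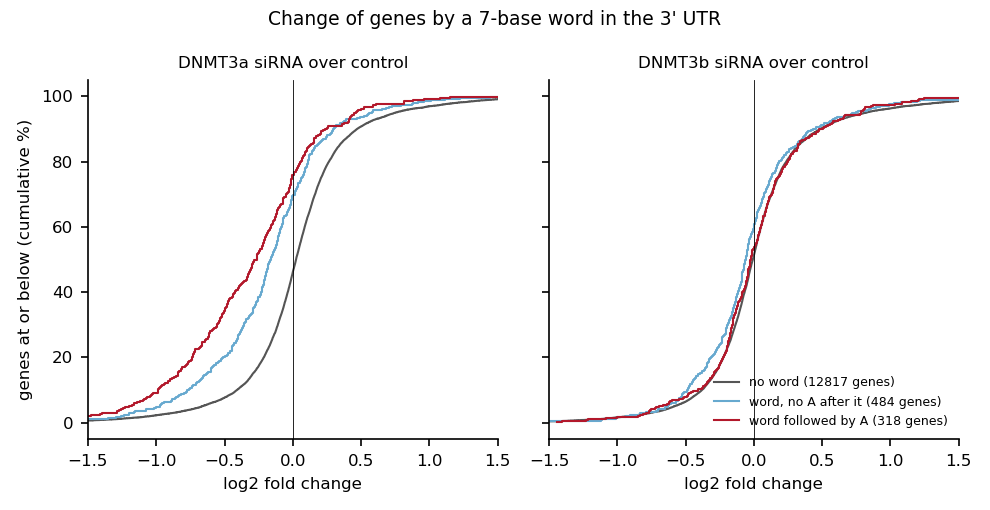
Cumulative share of genes (%) at or below each log2 fold change with DNMT3a siRNA (left) and DNMT3b siRNA (right), for 12817 genes without the word in the 3' UTR, 484 with the word and no A after it, and 318 with the word followed by A. On the left the curves part, with medians of 0.02, -0.16 and -0.27, and on the right their medians lie between -0.06 and -0.01.

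Long 3' UTRs hold more words, so the falls were also counted within 5 classes of 3' UTR length. In the shortest class (50 to 426 bases), 13 of 37 genes with the word fell (35.1%), against 2.90% of those without, and in the longest, 25.4% of 366 against 6.41%. The 3 classes between gave 29.0%, 32.1% and 18.2% with the word and 4.39% to 6.12% without. By control level, the share of genes with the word that fell went from 6 of 133 (4.51%) in the lowest of 5 classes to 102 of 218 (46.8%) in the highest, while it went from 1.54% to 9.38% in genes without it. Among the 435 fallen genes that were also lower than in the DNMT3b libraries, 31.5% held the word, and among the other 385 fallen genes 16.6%. Without 1 library at a time, the share of fallen genes with the word ran from 22.9% (without control 2) to 33.7% (without DNMT3a 1), and the share of other genes from 4.66% to 4.98%. The sequences of the 4 siRNAs were not used here, and whether the guide strand of one of them pairs with this word was not tested.

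**Figure D3:**
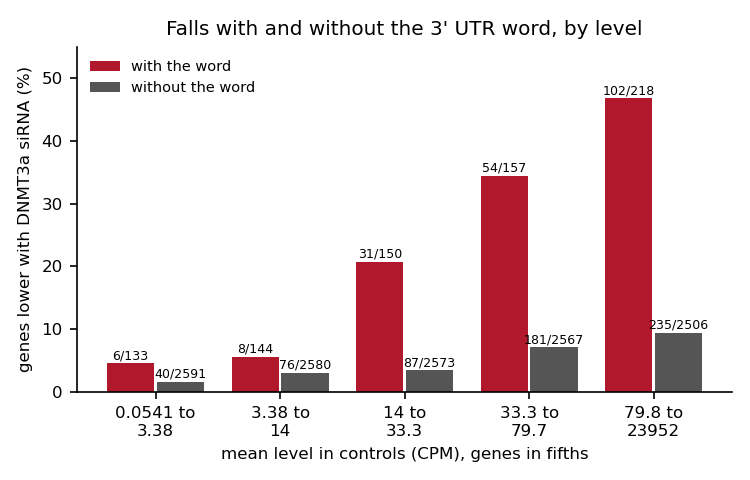
Share of genes lower with DNMT3a siRNA (%), in 5 equal classes of the mean control level (CPM, bounds under each pair), for genes with (red) and without (grey) the word in the 3' UTR. The figures over the bars are fallen genes over all genes of the class, and red rises from 6 of 133 to 102 of 218.

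Msn, which encodes moesin, a linker of actin to the cell membrane (ENSMUSG00000031207, chromosome X, 96096042 to 96168552, plus strand), read 989.8, 858 and 915 CPM in the controls and 438, 477 and 403 CPM after DNMT3a siRNA. The DNMT3b libraries, at 1091, 1056 and 1095 CPM, lay above the highest control, so Msn was low only in the DNMT3a group (-1.07 ± 0.09, adjusted p = 1.09e-04; against DNMT3b -1.30 ± 0.09, adjusted p = 1.10e-04). Cd2ap, an adaptor between membrane proteins and actin (ENSMUSG00000061665, chromosome 17, 42792951 to 42876665, minus strand), went from 152, 114 and 128 CPM to 51.0, 56.8 and 58.8 CPM (-1.24 ± 0.11, adjusted p = 1.63e-04). Its groups were likewise far apart, with DNMT3b libraries at 170.4, 152 and 142 CPM. Sh3bp5, an SH3-domain binding protein, went from 126, 112 and 131 CPM to 61.7, 51.4 and 59.4 CPM (-1.10 ± 0.09, adjusted p = 8.87e-05). Gas7, a growth-arrest gene linked to the cytoskeleton, went from 31.9, 25.8 and 35.3 CPM to 10.3, 10.9 and 6.54 CPM, a 3.35-fold drop (-1.74 ± 0.19, adjusted p = 4.34e-04). Unlike Msn and Cd2ap, Gas7 was also low with DNMT3b siRNA, at 16.0, 13.7 and 13.1 CPM (-1.12 ± 0.18, adjusted p = 0.00629), and the knockdowns did not pass against each other (adjusted p = 0.0628). Olr1, a receptor for oxidised low-density lipoprotein, behaved the same way, at 28.8, 22.4 and 30.3 CPM in controls, 6.56, 8.85 and 10.1 CPM with DNMT3a siRNA and 12.7, 6.63 and 7.50 CPM with DNMT3b siRNA (-1.67 ± 0.25, adjusted p = 0.00330). Serpina3g, a serine protease inhibitor with near-identical neighbours and therefore uncertain, went from 22.0, 19.9 and 21.2 CPM to 7.11, 6.58 and 5.37 CPM (-1.73 ± 0.16, adjusted p = 1.85e-04).

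Falls of the most abundant genes were small as ratios and large in reads. Col4a1, a basement membrane collagen (ENSMUSG00000031502, chromosome 8, 11198423 to 11312826, minus strand), read 6062, 7124 and 7404 CPM in controls against 4665, 3972 and 4738 CPM after DNMT3a siRNA (-0.62 ± 0.12, adjusted p = 0.00824). Timp2, an inhibitor of matrix metalloproteinases, read 2204, 1542 and 2279.7 CPM and 1132, 921 and 1020.1 CPM (-0.97 ± 0.15, adjusted p = 0.00267). Lpp, a protein of focal adhesions, read 1635, 1461 and 1716 CPM and 964, 1088 and 947 CPM (-0.68 ± 0.10, adjusted p = 0.00199), and Tln1, talin, which ties integrins to actin, 1451, 1273 and 1657 CPM and 1006, 799 and 982 CPM (-0.65 ± 0.12, adjusted p = 0.00702). In each of these 4 the lowest control lay above the highest DNMT3a library. Fstl1, a secreted glycoprotein, fell less, from 3712, 4097 and 4028 to 2896, 3160.3 and 2879 CPM (-0.41 ± 0.09, adjusted p = 0.0210), and its adjusted p ran over 1.76e-06 to 0.0816: it missed the threshold without control 3, DNMT3a 1 or DNMT3a 3.

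Adgrg1, an adhesion receptor (ENSMUSG00000031785, chromosome 8, 94974751 to 95014217, plus strand), read 5.57, 5.14 and 3.03 CPM in controls against 25.7, 12.7 and 15.3 CPM after DNMT3a siRNA, a 3.88-fold rise (1.96 ± 0.29, adjusted p = 0.00326). DNMT3a 1 was the highest of the 9 libraries, and the DNMT3b libraries stood between the groups at 10.2, 9.74 and 12.1 CPM. Lrrc2, which encodes a protein of leucine-rich repeats, went from 4.77, 2.54 and 3.33 CPM to 20.2, 10.4 and 13.5 CPM (2.05 ± 0.28, adjusted p = 0.00202). Igfbp5, a secreted binding protein of insulin-like growth factors, was even across the controls, at 16.1, 16.2 and 16.1 CPM, and uneven after DNMT3a siRNA, at 71.6, 34.4 and 44.1 CPM (1.63 ± 0.25, adjusted p = 0.00495). Marcks, an actin-binding substrate of protein kinase C (ENSMUSG00000069662, chromosome 10, 37133375 to 37138920, minus strand), was among the 8 largest rises in CPM, from 469, 568 and 540.3 to 789.9, 689 and 827 CPM (0.55 ± 0.10, adjusted p = 0.00617). Its DNMT3b libraries did not share the rise, at 451, 467 and 461 CPM (DNMT3a against DNMT3b 0.74 ± 0.10, adjusted p = 0.00176).

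Some muscle genes rose in both knockdowns, which share their controls. Lmod3, leiomodin, which starts thin actin filaments, read 1.34, 1.27 and 1.81 CPM in controls, 5.49, 4.61 and 6.02 CPM with DNMT3a siRNA and 5.81, 6.21 and 8.90 CPM with DNMT3b siRNA (1.87 ± 0.22, adjusted p = 6.94e-04). Rbm24, a splicing regulator of striated muscle, read 7.27, 14.8 and 10.3 CPM, 35.7, 42.9 and 37.8 CPM and 30.9, 33.3 and 43.0 CPM (1.85 ± 0.23, adjusted p = 0.00152). Mybpc3, cardiac myosin-binding protein C, read 142, 198 and 147 CPM, 717, 547 and 496 CPM and 562, 541 and 629 CPM (1.85 ± 0.16, adjusted p = 1.44e-04). For these 3 genes DNMT3a against DNMT3b did not pass (adjusted p = 0.279, 0.783 and 0.944 in turn, with differences of -0.38 ± 0.20, 0.12 ± 0.22 and 0.02 ± 0.16). Cox6a2, the muscle form of a cytochrome oxidase subunit, went from 2.68, 4.16 and 7.18 CPM to 19.2, 12.0 and 27.8 CPM (2.09 ± 0.40, adjusted p = 0.0151), with an adjusted p over 1.23e-07 to 0.0631 and no call without the filter on low counts (0.0631). Mybpc3 is itself 1 of the 18 cardiomyocyte markers, of which 15 rose, and the part of cell make-up in these rises was not tested.

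**Figure D4:**
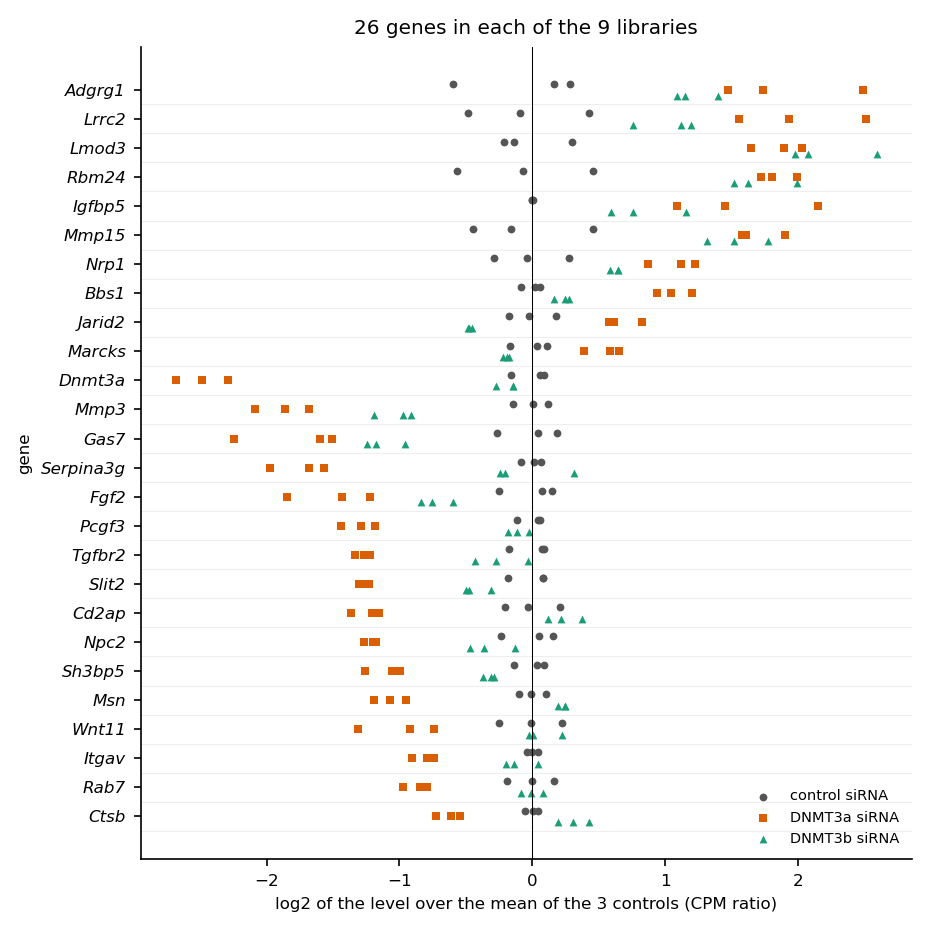
Log2 of the level over the mean of the 3 controls for 26 genes, with 1 mark per library: grey circles for control, orange squares for DNMT3a and green triangles for DNMT3b siRNA. In every gene shown the orange squares lie to 1 side of all grey circles. For Msn, Cd2ap, Rab7, Wnt11 and Ctsb the green triangles overlap or pass the grey circles on the other side. The same is seen in others shown, such as Marcks and Jarid2.

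Fibroblast growth factors (FGFs) bind receptor kinases that drive the ERK cascade, and that cascade induces its own inhibitors. Of 29 FGF pathway genes tested (2 more were not), 6 fell and 0 rose, with 22 of 29 log2 fold changes below 0 and a median of -0.24 beside 0.02 over all genes. The ligand Fgf2 (ENSMUSG00000037225, chromosome 3, 37348346 to 37410108, plus strand) read 17.9, 22.4 and 23.6 CPM in controls, 5.94, 7.88 and 9.13 CPM in the knockdown and 12.6, 14.1 and 12.0 CPM after DNMT3b siRNA. Fgf2 was thus lowest in the DNMT3a group (-1.48 ± 0.17, adjusted p = 4.58e-04), and the step from DNMT3b passed as well (-0.75 ± 0.16, adjusted p = 0.0181). Spred2, an inhibitor of the cascade, fell from 61.5, 59.8 and 67.3 to 47.5, 42.1 and 45.6 CPM (-0.48 ± 0.09, adjusted p = 0.00585). Dusp6, a phosphatase of ERK, fell by 0.38 (SE 0.08, adjusted p = 0.0145, over 3.58e-04 to 0.0623, and not called without control 1 or DNMT3a 1). The other fallen members, named after their values were seen, were the ERK-induced factors Etv4 and Etv5 and the inhibitor Spry4, at -0.33, -0.42 and -0.49, called in 11 of 18, 15 of 18 and 10 of 18 alternatives. The falls numbered 3 without control 3 and 2 without DNMT3a 1, and 1 member rose without control 2, without DNMT3a 2 or with the block. Fgf2 and Spred2 held the word GCCAATA in the 3' UTR.

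Transforming growth factor beta acts through a pair of receptor kinases. Of 46 genes of the TGF-beta and BMP list, 6 fell and 3 rose (median -0.09). Both receptor genes fell: Tgfbr2 (ENSMUSG00000032440, chromosome 9, 116084293 to 116175360, minus strand) from 185, 156 and 187 to 73.3, 75.5 and 69.9 CPM (-1.27 ± 0.11, adjusted p = 1.02e-04) and Tgfbr1 from 118, 93.7 and 102 to 62.5, 68.1 and 50.0 CPM (-0.80 ± 0.13, adjusted p = 0.00414). Both held the word in the 3' UTR, and their DNMT3b libraries, at 172, 145 and 131 and 115, 97.8 and 91.9 CPM, were higher than the DNMT3a libraries (Tgfbr2 adjusted p = 6.37e-04, Tgfbr1 adjusted p = 0.00700). The ligand gene Tgfb1 fell from 89.5, 96.6 and 107 to 62.6, 66.1 and 63.2 CPM (-0.61 ± 0.10, adjusted p = 0.00392), while Tgfb2, another ligand, was higher, from 199, 221 and 217 to 314, 248 and 316 CPM (0.46 ± 0.12, adjusted p = 0.0310, over 0.00170 to 0.113). The latter call ended without control 1, control 3, DNMT3a 1, DNMT3a 3 or DNMT3b 3. The other fallen members, named after their values were seen, were Ltbp4, which holds the ligand in the matrix (-1.13), the receptor gene Bmpr1a (-0.39, in 10 of 18 alternatives) and the ligand gene Gdf11 (-0.35, in 13 of 18). Acvr1b and Inha were the other risen members, by 0.47 ± 0.13 and 0.70 ± 0.20, and both calls were lost in most alternatives (adjusted p over 0.00505 to 0.153 and 0.00589 to 0.181). The count of risen members was 0 without control 3, DNMT3a 1, DNMT3a 3 or DNMT3b 3, 1 without control 1 or DNMT3b 2, and 5 without DNMT3a 2 or with the block.

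Wnt proteins signal through Frizzled and LRP receptors, and R-spondins amplify them through LGR receptors. Of 54 Wnt genes 7 rose and 5 fell (median 0.04). The ligand Wnt11 fell from 68.3, 80.2 and 57.7 to 36.3, 41.2 and 27.6 CPM (-0.97 ± 0.16, adjusted p = 0.00392), with the DNMT3b libraries level with the controls at 69.0, 80.2 and 67.8 CPM. The receptor gene Lgr4 rose from 26.3, 27.2 and 27.0 to 41.2, 41.2 and 41.6 CPM (0.62 ± 0.08, adjusted p = 8.07e-04), and with DNMT3b siRNA it read 45.3, 40.6 and 44.4 CPM. Its relative Lgr6 was scarce and went the other way, from 1.70, 2.93 and 1.70 to 0.714, 0.758 and 0.556 CPM (-1.63 ± 0.34, adjusted p = 0.0122, over 1.51e-04 to 0.0504, not called without DNMT3a 3). Lrp6 fell by 0.30 (SE 0.07, adjusted p = 0.0191), Kremen1, an LRP antagonist, rose by 0.52 ± 0.13 (adjusted p = 0.0287) and Rspo3 by 0.56 ± 0.14 (adjusted p = 0.0282). Their adjusted p ran over 8.87e-05 to 0.0815, 0.00107 to 0.0953 and 0.00891 to 0.0989, and all 3 calls ended without control 1, control 3, DNMT3a 1 or DNMT3a 3. Kremen1 also lost its call without DNMT3b 3, and Rspo3 without control 2, DNMT3b 2 or DNMT3b 3. The remaining falls, Wnt4 (called in 10 of 18 alternatives) and Lrp5 (12 of 18), and rises, Fzd2 (8 of 18), Ror1 (11 of 18), Nkd1 (10 of 18) and Sfrp4 (7 of 18), are named after their values were seen. Wnt counts leaned on single libraries: the rises numbered 3 without control 1, 1 without control 3, DNMT3a 1, DNMT3a 3 or DNMT3b 3 and 4 without DNMT3b 2, and the falls 3 without control 1, DNMT3b 2 or DNMT3b 3 and 2 without control 3, DNMT3a 1 or DNMT3a 3. With the block 12 rose and 8 fell.

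In the Hippo pathway, which restrains the coactivators YAP and TAZ, 3 of 22 genes fell and 1 rose (median -0.09). Amotl1 went from 332, 255 and 337 to 194, 166 and 195 CPM (-0.74 ± 0.12, adjusted p = 0.00307) and Amot from 114, 79.9 and 79.1 to 60.4, 58.9 and 53.1 CPM (-0.66 ± 0.13, adjusted p = 0.00923), and both encode angiomotins, which bind YAP and TAZ. Wwtr1, the TAZ gene, fell from 235, 227 and 224 to 182, 178 and 175 CPM (-0.36 ± 0.07, adjusted p = 0.00676), a small but even step in which no library overlapped the other group. Ajuba, an inhibitor of the kinase LATS, rose by 0.29 ± 0.06 (adjusted p = 0.0159, over 1.77e-04 to 0.0736), and lost the call without control 1, control 3, DNMT3a 1 or DNMT3a 3. Among 16 insulin-like growth factor genes, Igfbp5 and Igf2bp1 rose and Irs1 and Igfbp6 fell. Irs1, the docking protein of the insulin and IGF receptors, went from 105, 113 and 95.3 to 65.6, 78.7 and 65.2 CPM (-0.58 ± 0.10, adjusted p = 0.00387). Igfbp6, a binding protein, went from 38.2, 63.2 and 66.5 to 11.0, 15.8 and 29.3 CPM (-1.58 ± 0.36, adjusted p = 0.0328, over 2.21e-04 to 0.103), and lost the call without control 2, control 3, DNMT3a 1, DNMT3a 2, DNMT3b 1, DNMT3b 2 or DNMT3b 3. Igf2bp1, which binds mRNA, rose by 0.32 ± 0.07 (adjusted p = 0.0183, over 0.00232 to 0.0698), with no call without control 1, DNMT3a 1 or DNMT3a 3.

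Axon guidance genes, which also steer cells of the heart and its vessels, moved both ways: of 62, 8 fell and 5 rose (median 0.08). Slit2, a secreted ligand of Robo receptors (ENSMUSG00000031558, chromosome 5, 47983138 to 48307733, plus strand), fell from 213, 214 and 178 to 81.4, 82.9 and 85.7 CPM (-1.27 ± 0.09, adjusted p = 3.82e-05). The DNMT3b libraries, at 162, 143 and 145 CPM, stood between (-0.43 ± 0.09, adjusted p = 0.0193). Nrp1, a coreceptor of semaphorins and vascular endothelial growth factor, rose from 143, 115 and 96.5 to 276, 256 and 216 CPM (1.08 ± 0.14, adjusted p = 9.10e-04). Sema3e and Sema4a, both semaphorin ligands, fell (-0.77 ± 0.13, adjusted p = 0.00525 and -1.65 ± 0.24, adjusted p = 0.00192). Sema3e was lower still with DNMT3b siRNA, at 94.8, 80.1 and 74.8 CPM against 121, 119 and 149 CPM with DNMT3a siRNA (adjusted p = 0.0147). Sema3a rose by 0.50 ± 0.12 (adjusted p = 0.0241, over 0.00407 to 0.0781), losing the call without control 1, control 3, DNMT3a 1, DNMT3a 2 or DNMT3a 3. Sema4f rose from 0.446, 0.195 and 0.259 to 1.53, 1.52 and 0.916 CPM (2.10 ± 0.36, adjusted p = 0.00516, called in all 17 alternatives that tested it). The falls numbered 5 without control 3 or DNMT3a 1. The rises numbered 2 without control 3 or DNMT3a 1, 3 without control 1, DNMT3a 3, DNMT3b 2 or DNMT3b 3, 8 without DNMT3a 2 and 9 with the block.

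**Figure D5:**
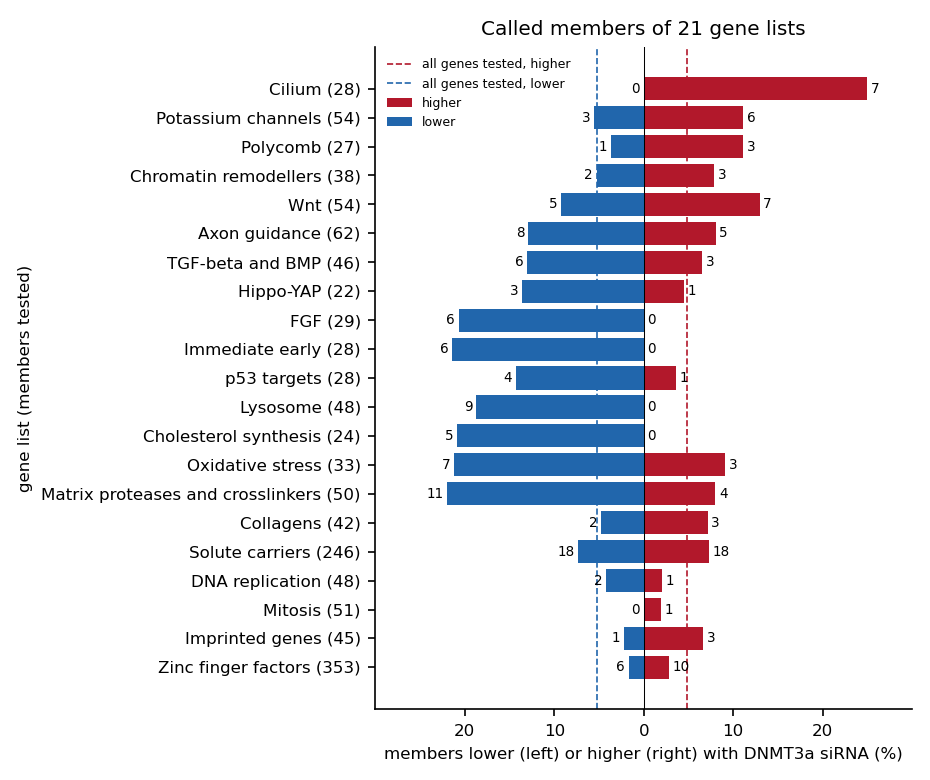
Share of the tested members (%) of 21 gene lists described in the text that were lower (blue, left) or higher (red, right) with DNMT3a siRNA, with the number of members at each bar and the number tested in brackets. Dashed lines mark the shares over all genes tested, 5.22% lower and 4.87% higher. Among these 21, blue bars reach 20.7% to 22.0% for matrix proteases, immediate early, oxidative stress, cholesterol synthesis and FGF genes, and the red bar is longest for cilium genes (25.0%).

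Of 24 cholesterol synthesis genes 5 fell and 0 rose (median -0.41), with 9 falls in the block or 10 without control 2 and 2 without DNMT3a 2 or DNMT3a 3. The median with DNMT3b siRNA was -0.32. Enzymes that cut and crosslink the extracellular matrix were lower more than higher: of 50 tested, 11 fell and 4 rose (median -0.21). Mmp3, the protease stromelysin, fell from 3.87, 4.65 and 4.29 to 1.01, 1.33 and 1.18 CPM (-1.86 ± 0.19, adjusted p = 3.31e-04), and with DNMT3b siRNA it read 1.88, 2.27 and 2.17 CPM. Plau, the urokinase plasminogen activator, fell from 47.2, 53.4 and 56.9 to 26.1, 35.4 and 26.4 CPM (-0.84 ± 0.15, adjusted p = 0.00535). Its DNMT3b libraries, at 46.3, 62.8 and 57.2 CPM, ran from just below the lowest control to above the highest. Timp2, an inhibitor of such enzymes, fell too, so the list holds enzymes and inhibitors alike. Mmp15, a metalloproteinase anchored in the membrane, rose from 11.2, 20.9 and 13.6 to 45.6, 57.2 and 46.6 CPM (1.71 ± 0.22, adjusted p = 0.00176), and Adamts17, a secreted protease, from 2.29, 2.86 and 2.18 to 4.74, 5.55 and 5.43 CPM (1.10 ± 0.17, adjusted p = 0.00266). Adamts6 rose by 0.64 ± 0.15 (adjusted p = 0.0189, over 0.00225 to 0.0824, not called without control 1, control 3 or DNMT3a 1), and Adamtsl4, named after its values were seen, by 1.12 (called in 8 of 18 alternatives). The falls numbered 7 without control 3 and 6 without DNMT3a 1 or DNMT3a 3, and the rises 2 without control 1, control 3 or DNMT3a 1.

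Of 42 collagens tested 37 were not called. Col4a1 and Col16a1 fell (4.76%, beside 5.22% of all genes). Col4a3, Col4a4 and Col20a1 rose (7.14%, beside 4.87%), and the median was 0.01. The ubiquitous type IV chain Col4a1 was lower as given above, whereas Col4a3 went from 8.05, 5.92 and 4.96 to 21.6, 12.9 and 15.5 CPM (1.40 ± 0.21, adjusted p = 0.00270) and Col4a4 from 13.3, 8.36 and 8.88 to 30.8, 17.4 and 26.2 CPM (1.28 ± 0.22, adjusted p = 0.00645). These chains assemble with each other in specialised basement membranes, and they rose with DNMT3b siRNA as well, to 24.8, 22.5 and 24.5 and 25.7, 23.9 and 26.1 CPM. Col16a1 fell from 433, 568 and 524 to 313, 278 and 256 CPM (-0.85 ± 0.13, adjusted p = 0.00253), and Col20a1 rose from 2.15, 1.50 and 1.92 to 6.75, 3.97 and 4.71 CPM (1.47 ± 0.25, adjusted p = 0.00521). The rises numbered 5 without DNMT3a 2 or with the block. Integrins are the receptors of this matrix: of 35 integrin and laminin genes, 1 fell and 3 rose (median 0.00). With the block 8 fell and 5 rose, and 3 fell without control 1 and 2 without DNMT3a 2. Itgav, the alpha V chain (ENSMUSG00000027087, chromosome 2, 83724397 to 83806916, plus strand), fell from 702, 683 and 724 to 406, 375 and 421 CPM (-0.81 ± 0.09, adjusted p = 4.32e-04), with DNMT3b libraries at 726, 641 and 613 CPM. Itga9 rose from 59.4, 75.4 and 69.1 to 107, 116 and 106 CPM (0.69 ± 0.09, adjusted p = 0.00149). Itga1 rose by 0.36 ± 0.09 (adjusted p = 0.0246, over 0.00750 to 0.0836), and its call was lost without control 1, control 3, DNMT3a 1, DNMT3a 2, DNMT3a 3 or DNMT3b 3. Without control 1, control 3 or DNMT3a 1 the rises of this list numbered 1. Fibroblast markers, given above, moved beside these matrix genes: Pdgfra, a fibroblast receptor, went from 152, 220.2 and 184 to 93.1, 128 and 125 CPM (-0.69 ± 0.15, adjusted p = 0.0156, over 1.97e-04 to 0.0516), and their part was not tested.

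Of the lysosomal genes, 9 of 48 were lower and 0 higher (median -0.23), with 37 of 48 log2 fold changes below 0. Npc2, which carries cholesterol out of the lysosome (ENSMUSG00000021242, chromosome 12, 84754562 to 84773152, minus strand), fell from 318, 261 and 342 to 136, 133 and 128 CPM (-1.21 ± 0.11, adjusted p = 1.79e-04), and the DNMT3b libraries read 280.1, 222 and 239 CPM. Ctsb, the protease cathepsin B, fell from 513, 552 and 538 to 324, 367 and 349.5 CPM (-0.62 ± 0.09, adjusted p = 0.00178), while with DNMT3b siRNA it stood above every control, short of the threshold, at 719, 611 and 660.3 CPM (0.31 ± 0.09, adjusted p = 0.0639; DNMT3a against DNMT3b -0.94 ± 0.09, adjusted p = 3.89e-04). Hexa, a subunit of hexosaminidase, fell from 198, 179 and 182 to 143, 137 and 116 CPM (-0.49 ± 0.09, adjusted p = 0.00670). The falls numbered 5 without control 3 or DNMT3a 1, and 1 member rose without DNMT3b 1. Rab proteins direct the traffic to these organelles, and of 54 small GTPase genes of the Rab family 4 fell and 2 rose (7 fell with the block or without control 2). Rab7, of late endosomes (ENSMUSG00000079477, chromosome 6, 87999106 to 88045270, minus strand), fell from 148, 116 and 132 to 73.7, 76.3 and 67.3 CPM (-0.87 ± 0.10, adjusted p = 4.88e-04), with DNMT3b libraries among the controls at 140.1, 124 and 131 CPM. Rab34 fell from 119, 142 and 137 to 73.5, 82.9 and 63.2 CPM (-0.86 ± 0.11, adjusted p = 8.07e-04) and Rab27b, of secretory vesicles, by 1.12 (SE 0.19, adjusted p = 0.00405). Rab22a, named after its values were seen, was at -0.25 and was called in 6 of 18 alternatives. Rab36 and Rab39b rose by 0.48 ± 0.12 (adjusted p = 0.0299, over 0.0117 to 0.0978) and 1.12 ± 0.28 (adjusted p = 0.0295, over 0.00426 to 0.117); 0 rises were left without control 1, DNMT3a 1 or DNMT3b 2, and 1 without control 2, control 3, DNMT3a 3 or DNMT3b 3. Macrophages are rich in lysosomes, and the macrophage markers fell beside these genes, as given above, from sums of 29.6 to 83.7 CPM to sums of 11.5 to 24.8 CPM; their part was not tested.

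Of genes that answer oxidative stress, 7 of 33 were lower and 3 higher (median -0.17). Gsta4, a glutathione transferase, fell from 42.5, 29.0 and 28.3 to 13.5, 15.5 and 16.4 CPM (-1.14 ± 0.21, adjusted p = 0.00914). Gpx4, a glutathione peroxidase of lipids, fell from 13.2, 14.8 and 11.0 to 7.99, 9.76 and 6.64 CPM (-0.68 ± 0.16, adjusted p = 0.0211, over 0.00100 to 0.0749, not called without control 1, DNMT3a 1 or DNMT3a 3). Fth1, the ferritin heavy chain, fell by 0.43 (SE 0.08, adjusted p = 0.00758), with the reserve that its pseudogenes make its count uncertain. Sod2, which removes superoxide, was higher by 0.34 ± 0.08 (adjusted p = 0.0190, over 0.00290 to 0.0779), the metallothionein Mt2 by 0.87 ± 0.22 (adjusted p = 0.0356, over 0.00140 to 0.115), and the third rise was that of catalase, Cat, whose call was also lost in some alternatives. These rises were 0 in number without control 3, DNMT3a 1 or DNMT3a 3 and 1 without any single DNMT3b library. The falls were 2 without control 1 or DNMT3a 1, 3 without control 3, DNMT3a 2 or DNMT3a 3, and 4 without DNMT3b 2 or DNMT3b 3. Of 23 genes of the unfolded protein response 3 rose and 1 fell. Derl3, of the degradation route of the endoplasmic reticulum, was scarce in controls at 1.20, 0.976 and 0.814 CPM and read 4.16, 2.30 and 8.05 CPM after DNMT3a siRNA (2.26 ± 0.44, adjusted p = 0.00999), highest in DNMT3a 3. Manf, a secreted stress factor, rose by 0.42 ± 0.09 (adjusted p = 0.0150, over 0.00161 to 0.0615, not called without control 3 or DNMT3a 1), the count of rises then being 1. The chaperone gene Hyou1 was at 0.26 ± 0.07 and Pdia4 at -0.29 ± 0.08, and each call was lost in most alternatives (adjusted p over 0.0136 to 0.151 and 0.00592 to 0.153). Leaving out control 1, DNMT3a 1, DNMT3a 3 or any 1 DNMT3b library left 0 falls.

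Among the lists used here, cilium genes had the largest risen share after the cardiomyocyte markers: 7 of 28 were higher (25.0%, beside 4.87% of all genes) and 0 lower, with a median of 0.31. The median with DNMT3b siRNA was -0.08. Bbs1, of the BBSome, which moves receptors into and out of the cilium (ENSMUSG00000006464, chromosome 19, 4886878 to 4906628, minus strand), rose from 6.27, 6.89 and 6.73 to 13.7, 12.7 and 15.3 CPM (1.07 ± 0.12, adjusted p = 3.95e-04), and the DNMT3b libraries read 7.44, 7.86 and 8.03 CPM (adjusted p = 0.00218 for DNMT3a against DNMT3b). Bbs4, of the same complex, rose from 4.04, 4.58 and 4.00 to 7.18, 6.82 and 7.30 CPM (0.75 ± 0.14, adjusted p = 0.00670), with DNMT3b libraries at 4.12, 4.17 and 3.58 CPM. Ift57, of the intraflagellar transport trains, rose from 11.2, 12.6 and 9.69 to 16.5, 17.7 and 15.8 CPM (0.58 ± 0.13, adjusted p = 0.0181, over 0.00178 to 0.0684, not called without control 3, DNMT3a 1 or DNMT3a 2). The other rises, Wdr35, Ift140, Ift81 and Ift22, all of intraflagellar transport and named after their values were seen, lay between 0.31 and 0.58 and were called in 7 of 18, 10 of 18, 8 of 18 and 13 of 18 alternatives in turn. The count leaned on single libraries, being 2 without control 3 or DNMT3a 2, 3 without control 1, DNMT3a 1 or DNMT3a 3, and 4 without DNMT3b 2 or DNMT3b 3, and it was 8 with the block.

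Chromatin genes other than the target changed in a few members. Of 27 Polycomb genes 3 rose and 1 fell (median 0.07). Pcgf3, a ring-finger partner in Polycomb repressive complex 1 (ENSMUSG00000033623, chromosome 5, 108461232 to 108506976, plus strand), fell from 189, 169 and 190.2 to 67.5, 80.4 and 74.6 CPM (-1.30 ± 0.09, adjusted p = 3.72e-05), with DNMT3b libraries at 179.9, 168 and 161 CPM. Jarid2, a partner of Polycomb repressive complex 2 known for its part in heart development (ENSMUSG00000038518, chromosome 13, 44729474 to 44921643, plus strand), rose from 30.9, 39.5 and 34.4 to 53.6, 52.2 and 62.1 CPM (0.68 ± 0.10, adjusted p = 0.00276). With DNMT3b siRNA it went the other way, to 25.0, 25.5 and 25.2 CPM (-0.47 ± 0.11, adjusted p = 0.0256), and the knockdowns differed (1.15 ± 0.11, adjusted p = 3.61e-04). Ring1 rose by 0.56 ± 0.11 (adjusted p = 0.0109, over 5.11e-04 to 0.0541, not called without DNMT3a 1) and Phc1 by 0.29 ± 0.08 (adjusted p = 0.0459, over 0.0236 to 0.157). Phc1 was not called without control 1, control 3, DNMT3a 1, DNMT3a 2, DNMT3a 3, DNMT3b 2 or DNMT3b 3, so 1 rise was left without DNMT3a 1. Of 38 nucleosome remodeller genes 3 rose and 2 fell. The rises were Dpf3, a heart and muscle subunit of the BAF complex, from 0.279, 0.455 and 0.407 to 1.07, 1.06 and 1.47 CPM (1.66 ± 0.33, adjusted p = 0.0101), and the BAF subunits Smarcd1 (0.58 ± 0.08, adjusted p = 0.00178) and Smarcd3 (0.56 ± 0.09, adjusted p = 0.00480). Smarca5 and Arid2 were lower by 0.41 (SE 0.08, adjusted p = 0.0122, over 2.00e-04 to 0.0508, not called without DNMT3a 3) and 0.29 (SE 0.07, adjusted p = 0.0219, over 5.63e-04 to 0.0825, not called without control 1, control 3 or DNMT3a 3). The remodeller falls numbered 1 without control 1 or control 3 and 0 without DNMT3a 3. Of 64 histone-modifying enzymes, Setd7 (0.43 ± 0.09, adjusted p = 0.0108) and Sirt3 (0.66 ± 0.14, adjusted p = 0.0135) rose and Hdac4, a repressor of muscle genes, fell from 48.7, 41.1 and 53.3 to 34.9, 28.6 and 31.7 CPM (-0.59 ± 0.11, adjusted p = 0.00724), the rises being 5 without control 2 and 4 with the block, and the falls 2 in both.

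Immediate early genes, which answer growth signals within minutes, were lower in 6 of 28 cases and higher in 0 (median -0.20; 1 was higher with the block or without control 2, DNMT3a 2 or DNMT3b 1). Egr1 read 514, 510.3 and 452 CPM in controls against 367, 259.7 and 292 CPM after DNMT3a siRNA (-0.69 ± 0.12, adjusted p = 0.00553), Egr2 6.10, 4.19 and 4.03 and 2.34, 1.61 and 1.47 CPM (-1.41 ± 0.23, adjusted p = 0.00389), and Errfi1, an inhibitor of the epidermal growth factor receptor, 41.2, 43.8 and 40.0 and 25.8, 32.4 and 27.6 CPM (-0.54 ± 0.10, adjusted p = 0.00576). Errfi1 moved up with DNMT3b siRNA, to 57.2, 52.9 and 53.8 CPM (0.39 ± 0.10, adjusted p = 0.0371), so that the knockdowns differed (adjusted p = 5.97e-04). Of 28 p53 targets and senescence genes 4 fell and 1 rose (median -0.18). The cell cycle inhibitor Cdkn2b fell from 76.7, 107 and 79.6 to 36.7, 57.3 and 38.4 CPM (-0.99 ± 0.18, adjusted p = 0.00733). Its neighbour Cdkn2a went from 29.9, 52.2 and 35.5 to 5.42, 16.4 and 13.7 CPM (-1.73 ± 0.38, adjusted p = 0.0290, over 4.17e-04 to 0.0896), and lost the call without control 1, control 2, control 3, DNMT3a 3, DNMT3b 2 or DNMT3b 3. Plk3 fell by 0.60 (SE 0.11, adjusted p = 0.00769), and Eda2r fell by 1.03 (SE 0.21, adjusted p = 0.0156, over 8.00e-06 to 0.0775, not called without control 1, control 3 or DNMT3a 1). Perp was higher by 0.77 ± 0.20 (adjusted p = 0.0431, over 7.23e-04 to 0.168, not called without control 1, DNMT3a 1, DNMT3a 3, DNMT3b 1, DNMT3b 2 or DNMT3b 3), and 2 members rose without DNMT3a 2 or with the block. The falls numbered 2 without control 1 or control 3. Of 51 mitosis genes Cenpf, named after its values were seen, rose (0.48, called in 11 of 18 alternatives) and 0 fell (3 rose without control 1, and 0 without control 2, control 3, DNMT3a 1, DNMT3a 3, DNMT3b 2 or DNMT3b 3), with 44 of 51 log2 fold changes above 0 (median 0.12). Of 48 DNA replication genes 1 rose and 2 fell, with 37 of 48 above 0 (median 0.12). Mcm7, a subunit of the replicative helicase, fell from 39.3, 32.7 and 29.4 to 20.2, 20.7 and 15.9 CPM (-0.84 ± 0.14, adjusted p = 0.00417), and E2f1 by 0.50 (SE 0.12, adjusted p = 0.0207, over 0.00133 to 0.0675), with 1 fall left without control 1 or DNMT3a 3. Blm was higher by 0.39 ± 0.11 (adjusted p = 0.0461, over 0.0138 to 0.159). Of the fits that left out 1 library, its call held only without control 1, where 2 members rose.

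Membrane transport genes were called in both directions. Of 54 potassium channel genes 6 rose (11.1%, beside 4.87% of all genes) and 3 fell (5.56%, beside 5.22%). Their median was 0.16, and 6 fell with the block. Kcnj11, the pore of the ATP-sensitive channel, rose from 0.334, 0.845 and 0.666 to 2.50, 2.15 and 2.81 CPM (2.03 ± 0.33, adjusted p = 0.00386). Kcnq1, of the slow delayed rectifier, rose from 1.42, 3.84 and 2.52 to 8.90, 11.0 and 10.5 CPM (1.98 ± 0.29, adjusted p = 0.00247), but it overlaps the antisense gene Kcnq1ot1, and the strand setting of the counts is not known. Kcna4 rose from 1.95, 2.15 and 1.37 to 3.83, 4.82 and 3.96 CPM (1.20 ± 0.21, adjusted p = 0.00599). Kcnk5, a leak channel, fell from 8.05, 5.14 and 5.47 to 2.53, 2.36 and 2.55 CPM (-1.33 ± 0.22, adjusted p = 0.00392), Kcnab1, an auxiliary subunit, fell by 0.68 (SE 0.13, adjusted p = 0.00914), and Kcnj5 by 1.06 (SE 0.22, adjusted p = 0.0155, over 5.43e-05 to 0.0641, not called without DNMT3a 1). Of 246 solute carriers 18 rose and 18 fell (7.32% each way, median -0.01). Slc8a1, the sodium-calcium exchanger of the heart, rose from 65.4, 91.5 and 68.2 to 130.0, 161 and 146 CPM (0.96 ± 0.14, adjusted p = 0.00236), Slc8a2, of the same family, by 1.48 ± 0.22 (adjusted p = 0.00219), and Slc9a7, a sodium-proton exchanger, by 1.08 ± 0.22 (adjusted p = 0.0117). The zinc transporter Slc39a1 fell from 185, 205 and 208 to 123, 132 and 121 CPM (-0.67 ± 0.08, adjusted p = 5.43e-04), the folate transporter Slc46a1 fell by 0.75 (SE 0.11, adjusted p = 0.00255) and the creatine transporter Slc6a8 fell by 0.68 (SE 0.10, adjusted p = 0.00190). Slc6a8 stood at 123, 143 and 149 CPM with DNMT3b siRNA, above the DNMT3a libraries at 75.4, 70.5 and 62.9 CPM (adjusted p = 4.46e-04). The carrier rises numbered 9 without control 1, 7 without control 3, 6 without DNMT3a 1, 7 without DNMT3a 3 and 11 without DNMT3b 3, and the falls 11 without DNMT3a 1.

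Germline and imprinted genes, which DNA methylation is known to control, were looked at as lists. Of 50 germline genes only 20 were expressed enough to test, and 1 rose and 1 fell. The fall was that of Ddx4, an RNA helicase of germ cells (ENSMUSG00000021758, chromosome 13, 112598333 to 112652475, minus strand), with 51, 22 and 32 reads in the controls, 26, 17 and 24 in the DNMT3b libraries and 0, 3 and 2 in the DNMT3a libraries. It was lower against both other groups (adjusted p = 0.00134, over 9.59e-09 to 0.00917 in the 17 alternatives that tested it, and adjusted p = 0.00504 against DNMT3b), and no fold is given at such counts. The rise, named after its values were seen, was that of Mov10l1, at 0.613, 1.07 and 0.370 CPM in controls against 2.08, 2.30 and 2.16 CPM after DNMT3a siRNA (1.66 ± 0.34, adjusted p = 0.0116), and 2 members rose without control 1. Of 45 imprinted genes 3 rose and 1 fell (median 0.04). Of the falls there were 4 with the block, 3 without DNMT3a 2 and 0 without DNMT3a 1 or DNMT3a 3. Copg2, a coat protein of vesicles, rose from 40.4, 45.0 and 42.0 to 55.0, 56.9 and 60.0 CPM (0.43 ± 0.08, adjusted p = 0.00670), with DNMT3b libraries among the controls at 44.5, 41.6 and 41.5 CPM. Kcnq1 and Kcnq1ot1, the latter at 0.74 ± 0.19 (adjusted p = 0.0364, over 0.00323 to 0.0978, not called without control 1, control 2, control 3, DNMT3a 2, DNMT3a 3 or DNMT3b 2), were the other rises and share the reserve on strand. H13, a signal peptide peptidase, fell by 0.37 (SE 0.08, adjusted p = 0.0128, over 8.82e-05 to 0.0537).

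By chromosome, the risen share ran from 3.61% (chromosome 16) to 7.04% (chromosome 10) and the fallen share from 3.60% (chromosome 13) to 7.21% (chromosome 14). Longer protein-coding genes changed more often in both directions: in the longest of 5 classes of gene span (over 75.6 kb) 8.23% rose and 7.90% fell, against 4.46% and 3.63% in the shortest (up to 8.37 kb). Promoters were compared by the RefSeq windows of 250 bases before to 50 after the start, on chromosomes that table holds, where 10943 of 13407 tested protein-coding genes (81.6%) had one. Of 7354 genes with a CpG-rich window (observed over expected CpG of at least 0.6 and at least 50% G and C) 5.03% rose and 6.04% fell. Of 3589 with a CpG-poor window 6.77% rose and 5.60% fell. By control level, lowest class to highest, CpG-poor genes fell in 0.837%, 3.55%, 5.35%, 8.64% and 12.7% of cases. CpG-rich genes fell in 0.609%, 2.37%, 2.85%, 6.58% and 11.5%, less often in each class, unlike the pooled shares. In the highest class CpG-rich genes rose in 2.69% and CpG-poor genes in 5.37% of cases, and in the lowest class in 6.49% and 5.74%. DNA methylation itself was not analysed here.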

How the data were processed

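RNA-seq was made from 9 libraries, of which 6 enter the comparison described. Reads were checked with FastQC, aligned with TopHat2 to mm10 (GRCm38) and counted with HTSeq, per the submitters' processing notes, and the authors deposited whole-number counts per gene. How strand was set in counting was not stated in these sources, nor were aligner options, so reads of overlapping, antisense and near-identical genes cannot be told apart. Summary lines that name no gene held 49.2% to 56.2% of each library's total and were left out. Of 43629 gene identifiers, 42462 had a symbol in GENCODE release 21.

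Genes with at least 10 counts in enough libraries and 15 in all (edgeR's filter) were tested with edgeR 4.0.16 in R 4.3.3 (TMM, robust quasi-likelihood, group as the sole term, all 9 libraries sharing 1 estimate of the spread). The standard error is the log2 fold change over the square root of F. limma 3.58.1 (voom) and DESeq2 1.42.0 were alternatives, beside other scalings and filters, the 6 libraries alone, a replicate block and each library left out. The labels do not say that a number marks a shared litter. Across genes, the deviations of libraries from their group's mean correlated between same-numbered control and DNMT3a libraries (r = 0.434, 0.513 and 0.459). The block therefore treats the numbers as pairs by the data, not the design. The main fit leaves this pairing out, and so do its standard errors and adjusted p, unless the block is named.

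Genes were named by rule: the target, its relatives and Vcam1; the 15 largest rises and falls by fold and the 8 by CPM; the 4 by fold among noncoding genes; up to 3 called members in each direction, by smallest adjusted p, of each list with at least 3 called; up to 2 members of the 5 most affected symbol families each way; and genes with at most 3 counts in every library of 1 group and at least 10 in the other's. Any others are said to be chosen after their values were seen. The comparison, its lists and the word GCCAATA were chosen with earlier results of these data known. The word was searched in spliced 3' UTRs of GENCODE release 21, the longest per gene, of at least 50 bases. The share of fallen genes with the word in the other fits was added after seeing the data. Promoter windows are from RefSeq. The siRNA sequences were not used here. One gene that the rule names is not reported here.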

Additional observations from a re-analysis of the deposited data

How the results depend on the processing

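The counts of changed genes moved with the model more than with scaling. The number of genes changed with DNMT3a siRNA was 1671 (807 higher, 864 lower). Fitting the 6 libraries alone gave 946 (395 and 551), and the replicate block with those 6 gave 3580 (1581 and 1999). With the replicate block over all 9 libraries, 1125 rose and 1245 fell, within 1.5 times the counts without it. Leaving out 1 library at a time gave 868 to 1839 changed genes, 416 to 900 higher and 452 to 939 lower. The share of fallen genes with GCCAATA in the 3' UTR (24.5%) was 28.1% by library size alone, 29.98% with the 6 libraries alone, 20.7% among the fallen genes of the replicate block fit, 16.4% with the block and 6 libraries, 20.2% with DESeq2 and 22.9% to 33.7% with 1 library left out. In each of these the share among other genes was 4.23% to 4.98%, and the cause of the shifts was not tested. Of 209 genes named by rule, 131 kept their side of the threshold in all alternatives. Over all of these genes and alternatives, 3326 results kept side and direction, 417 fell short of the threshold, 9 newly passed it and 0 reversed. The block changed the call of Vcam1, as given above, and of the noncoding AU020206 (lower, adjusted p = 0.0542 with the block), and of no other of these genes. With 3 libraries a group and a shared spread, small changes of scarce genes are hardest to call.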

Other observations

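Symbol families, in which genes share the letters before the first digit, give a view that needs no list; 60 families had at least 20 tested protein-coding members. Cox genes, of cytochrome oxidase and its assembly, rose most often (7 of 25, 28.0%, 1 lower), and after Cox6a2 an example is the assembly factor Cox10, from 15.9, 16.3 and 17.3 to 25.8, 23.9 and 23.7 CPM (0.57 ± 0.09, adjusted p = 0.00350). The median of the Cox family was 0.23 with DNMT3a siRNA and 0.53 with DNMT3b siRNA. Ankrd genes followed (6 of 35 higher, 1 lower): Ankrd45 was scarce, at 0.195, 0.325 and 0.333 CPM, and rose to 2.37, 2.24 and 1.54 CPM (2.85 ± 0.31, adjusted p = 3.80e-04). Of Cep genes, of the centrosome, 4 of 36 rose and 1 fell, with Cep89 as an example (0.73 ± 0.10, adjusted p = 0.00117; against DNMT3b 0.72 ± 0.10, adjusted p = 0.00186). Among falls, Zdhhc genes, which attach palmitate to proteins, led with 5 of 20 (25.0%): Zdhhc18 went from 39.1, 41.9 and 51.1 to 27.2, 28.7 and 28.9 CPM (-0.64 ± 0.12, adjusted p = 0.00776). The median of this family was 0.01, with 10 log2 fold changes above 0 and 10 below. Zc3h15, a zinc finger protein with the word GCCAATA near its 3' end, fell from 48.2, 46.8 and 47.1 to 22.5, 29.9 and 24.4 CPM (-0.89 ± 0.10, adjusted p = 5.48e-04), and its DNMT3b libraries stood level with the controls at 46.4, 47.3 and 46.9 CPM. In the list of zinc finger factors, mostly Zfp genes, 10 of 353 rose (2.83%, beside 4.87% of all genes) and 6 fell (1.70%, beside 5.22%). The rises numbered 2 without control 1, 3 without DNMT3a 3, 5 without control 3, DNMT3a 1 or DNMT3b 3 and 6 without DNMT3a 2, and the falls 11 without control 2, 1 without DNMT3a 1 and 2 without DNMT3a 3.

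Neighbouring genes were also compared, with no estimate of how many runs would arise from 4.87% higher and 5.22% lower genes placed without order. Of adjacent tested genes, 12 runs of 3 moved the same way and none was longer. One held Mtap, Cdkn2a and Cdkn2b on chromosome 4 (89137122 to 89311039), all lower, and another Slc43a1, Rtn4rl2 and Slc43a3 on chromosome 2 (84838850 to 84958509), all lower. Cdkn2a, Slc43a1 and Rtn4rl2 were called in 10 of 18, 9 of 18 and 9 of 18 alternatives. Ppfia2, which begins a run of rises with Acss3 (called in 7 of 16 alternatives that tested it) and Lin7a (15 of 18) on chromosome 10, had 3, 3 and 0 reads in controls and 13, 19 and 11 after DNMT3a siRNA (adjusted p = 0.0165, over 0.00517 to 0.0521, not called without DNMT3a 2), and Slc26a7 2, 2 and 2 against 11, 10 and 10 (adjusted p = 0.0409, over 0.0216 to 0.121, not called without control 1, control 2, control 3, DNMT3a 1, DNMT3a 2, DNMT3a 3 or DNMT3b 3). Of 1101 processed pseudogenes, whose reads are hard to assign, 25 were lower and 1 higher. The long noncoding gene Tug1 fell from 218, 159.5 and 212 to 123, 116 and 119.8 CPM (-0.72 ± 0.12, adjusted p = 0.00531), and Mhrt, which lies antisense to Myh6 and is uncertain without strand, read 1.23, 2.70 and 2.18 CPM and 4.12, 4.73 and 6.08 CPM (1.30 ± 0.29, adjusted p = 0.0187, over 2.13e-04 to 0.0666, not called without control 3 or DNMT3a 3). Of 14 genes of the small RNA machinery Ago3, an Argonaute, fell from 68.4, 64.8 and 86.1 to 47.8, 47.9 and 52.9 CPM (-0.56 ± 0.11, adjusted p = 0.00999). Tnrc6b was lower by 0.33 (SE 0.09, adjusted p = 0.0493, over 0.00447 to 0.163), a call that held, of the fits that left out 1 library, only without control 2, and Drosha higher by 0.35 ± 0.08 (adjusted p = 0.0251, over 0.00732 to 0.108, not called without control 1, control 3, DNMT3a 1, DNMT3a 3 or DNMT3b 3). In that list 3 rose without DNMT3a 2.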
